A study of Mus musculus with 16 samples.

Results

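Livers of 102-week-old mice labelled PAM II were compared with livers of 102-week-old mice that had received no antibiotics. The members are the 8 libraries of these groups, 4 in each, out of 16 in the series, and they were chosen by their labelled age and exposure group. The control mice (Aged_no_ABX) and the antibiotic-exposed mice (Aged_PAM_II) shared age and tissue. The other 8 libraries, used for the spread and for context, came from 102-week-old mice of a second antibiotic group (PAM I) and from 12-week-old mice without antibiotics. By the title of the series the antibiotics were given early in life, and no antibiotics are listed for the controls. Each group is a set of separately labelled livers, and p-values measure the spread between these samples. The drugs, doses, age at exposure, sex, litter, cage and time of day of sampling were not given in the sources used here. RNA was extracted from portions of frozen whole liver, so fewer cells of a type and less RNA per cell cannot be told apart.

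The liver receives blood directly from the gut, and bacterial products and metabolites reach it through the portal vein. Resident macrophages called Kupffer cells and the sinusoidal endothelium take up such material, while hepatocytes carry out bile acid, lipid and drug metabolism that gut bacteria are known to influence. Antibiotics given early in life alter the gut microbiota while it is being established, and the comparison asks whether liver RNA of old mice differs after such exposure.

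Fragments assigned to genes came to 39856490 to 47042924 per control library and 41233838 to 52090914 per PAM II library. Levels are given as CPM, the count of a gene relative to the size of its library, scaled by the TMM method. Across the 8 libraries albumin (Alb) ran from 55816 to 91299 CPM and the hepatocyte factor Hnf4a from 393 to 775 CPM. Xist lay at or under 0.114 CPM and the Y-linked Ddx3y between 20.7 and 44.3 CPM in all 8. Several features set libraries apart within the groups. PAM II replicate 1 held granulocyte and erythroid transcripts at levels not seen in the other 7 libraries, with 41 genes at least 4-fold above all of them, against 13 such genes in control replicate 4 and 0 to 5 in the other 6. Skeletal muscle transcripts were high in PAM II replicates 2, 3 and 4 and, to a lesser degree, in control replicate 2. Summed over the muscle genes, control replicate 2 (42.7 CPM) was close to PAM II replicate 2 (45.7 CPM). Control replicate 4 had the highest T cell and natural killer cell transcripts and low levels of several clock genes. The file headers place all 4 controls in one column of the plate and all 4 PAM II samples in the next, so plate column and group cannot be told apart.

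No gene differed between PAM II and control livers at an adjusted p under 0.05. Of 17046 genes tested, 0 were called (0%) with edgeR's quasi-likelihood test and Benjamini-Hochberg adjustment, and the lowest adjusted p was 1. At an unadjusted p under 0.05 there were 465 genes (2.73%), of which 210 were higher (1.23%) and 255 lower (1.5%) in PAM II. With no difference between the groups, a share of about 0.05 of genes would pass that threshold, more than was seen. DESeq2 and limma voom also called 0 genes, with 676 and 902 at an unadjusted p under 0.05 and lowest adjusted p of 0.334 and 0.263. The same fit called 551 of 17046 genes (3.23%) between aged controls and young mice. In 358 genes (2.1%) the 4 PAM II libraries did not overlap with the 4 controls, with PAM II higher in 138 (0.81%) and lower in 220 (1.29%). With no difference between the groups, 4 against 4 libraries separate fully in a share of about 0.0286 of genes, above the share seen. Lack of overlap alone therefore does not set a gene apart. The median log2 fold change over all genes was 0.0056, and the median standard error (SE) was 0.22.

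The precision of the comparison differed with expression level. The 95% interval of the fold change stayed within 2-fold in both directions for 72.6% of all genes. This share was 31.5% for genes under a mean log2 CPM of 1, 85.9% for genes from 1 to 4, 96% for genes from 4 to 7 and 95.7% for genes over 7. For most genes of moderate and high level, a difference of more than 2-fold lay outside the interval, while for most genes of low level such a difference could not be bounded with 4 livers per group. Leaving out control replicate 4 raised the number of genes at an unadjusted p under 0.05 from 465 of 17046 to 933 of 17286, still with 0 called.

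**Figure D1:**
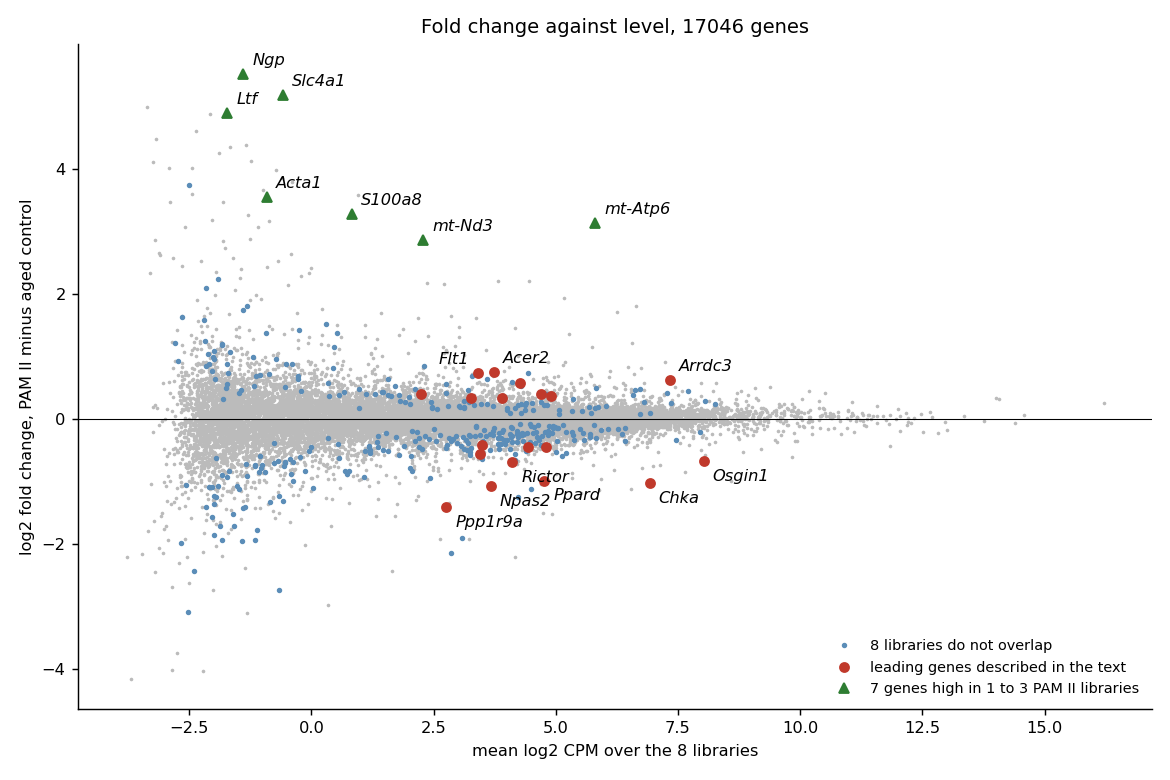
Log2 fold change of PAM II against aged control livers (y axis) against the mean log2 CPM of the 8 libraries (x axis) for 17046 genes, 1 point per gene. Blue points are the 358 genes whose libraries do not overlap, red points the leading genes described in the text, and green triangles 7 genes that were high in 1 to 3 PAM II libraries. No gene passed the test, and the largest positive fold changes belong to granulocyte, red cell and muscle genes.

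Genes whose groups did not overlap and whose mean log2 CPM reached 1 or more are described first, drawn from those with the smallest p in each direction. There were 80 such genes with higher and 146 with lower levels in PAM II, and none was called, so the values are a description. Chka, choline kinase alpha, catalyses the first step of phosphatidylcholine synthesis from choline. Chka measured 154, 143, 243 and 166 CPM in controls 1 to 4 and 98.6, 81.3, 105 and 61.5 CPM in PAM II 1 to 4. The highest PAM II liver lay below the lowest control, and the log2 fold change was -1.03 ± 0.24 (SE, n = 4 each), with a 95% interval of -1.54 to -0.51. Npas2, a clock transcription factor that pairs with BMAL1, measured 16.7, 20.6, 25.9 and 12.4 CPM in controls and 7.63, 9.17, 11.4 and 7.6 CPM in PAM II. Control replicate 4 was the lowest control and lay just above PAM II replicate 3, and the log2 fold change was -1.08 ± 0.26. Ppp1r9a, an actin-binding scaffold of protein phosphatase 1, measured 12.8, 17.1, 7.69 and 7.71 CPM in controls and 3.73, 5.09, 4.65 and 3.61 CPM in PAM II, with a log2 fold change of -1.41 ± 0.35. The controls themselves formed a higher pair and a lower pair for this gene. The deposited annotation, on GRCm38, places Chka (ENSMUSG00000024843) on chromosome 19 from 3851773 to 3894369, Npas2 (ENSMUSG00000026077) on chromosome 1 from 39193731 to 39363236 and Ppp1r9a (ENSMUSG00000032827) on chromosome 6 from 4902917 to 5165661.

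Rictor encodes the subunit that defines mTOR complex 2, a kinase complex that acts on AKT downstream of insulin. It measured 21.8, 20.2, 23.4 and 22.9 CPM in controls and 10.3, 19, 14.1 and 11.5 CPM in PAM II, a log2 fold change of -0.69 ± 0.19. The controls were close together, and PAM II replicate 2 lay near them while the other 3 PAM II livers lay well below. Ppard, the nuclear receptor PPAR-delta, measured 44.5, 33.4, 46.6 and 32.6 CPM in controls and 18, 18.4, 29.2 and 13.6 CPM in PAM II (-0.99 ± 0.28 on the log2 scale). Osgin1, a growth inhibitor induced by oxidative stress, measured 331, 290.1, 389 and 317 CPM in controls and 218, 209, 238 and 166 CPM in PAM II (-0.68 ± 0.21 on the log2 scale). For both genes the groups were separated by a gap smaller than the range within the controls. The chromatin genes Rcor3, a corepressor of the CoREST family, and Ino80d, a subunit of the INO80 remodeller, had log2 fold changes of -0.56 ± 0.16 and -0.45 ± 0.14. Ahdc1, an AT-hook DNA-binding protein, measured 32.6, 31, 33.7 and 33.2 CPM in controls and 22.9, 25.6, 24 and 22.4 CPM in PAM II (-0.46 ± 0.14 on the log2 scale), and both groups were narrow. Ago3, an Argonaute protein that binds small RNAs, had -0.42 ± 0.13 on the log2 scale.

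The leading genes with higher levels in PAM II showed smaller differences than Chka, Npas2, Ppp1r9a and Ppard. In size they overlapped with the other leading lower genes. Arrdc3, an arrestin-domain adaptor of receptor and metabolic signalling, measured 124, 129.6, 117 and 154 CPM in controls and 183, 197, 208 and 221 CPM in PAM II, a log2 fold change of 0.63 ± 0.17 with a 95% interval of 0.27 to 0.98. All 4 PAM II livers lay above all 4 controls, which the choice of these genes requires. Colec10, a collectin made in liver, measured 14, 19, 14.4 and 15.9 CPM in controls and 22.7, 22.7, 23.7 and 24.9 CPM in PAM II (0.57 ± 0.17 on the log2 scale), with the 4 PAM II livers close together. Acer2, a Golgi ceramidase, and Flt1, the VEGF receptor 1 of endothelium, had log2 fold changes of 0.75 ± 0.22 and 0.73 ± 0.23. Both were highest in PAM II replicate 1, with Acer2 at 27.5 CPM there and 13.7 to 15.8 CPM in the other 3 PAM II livers, against 7.97 to 12.6 CPM in controls. Mvk, mevalonate kinase of sterol synthesis, measured 30.8, 21.1, 27.7 and 26.5 CPM in controls and 35.8, 31.9, 31.6 and 36.5 CPM in PAM II (0.36 ± 0.13 on the log2 scale). The remaining 4 genes, the ubiquitin ligase Mkrn1, the ubiquitin-binding Ubac1, the mitochondrial import chaperone Timm10 and the telomere nuclease Dclre1b, had log2 fold changes of 0.33 to 0.39. Mkrn1 stood at 40.9 CPM in PAM II replicate 1, 24.8 to 28.2 CPM in the other 3 PAM II livers and 22.2 to 23.5 CPM in controls. Ubac1 was also highest in PAM II replicate 1, at 20.4 CPM against 14.9 to 16.4 CPM in the other 3.

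**Figure D2:**
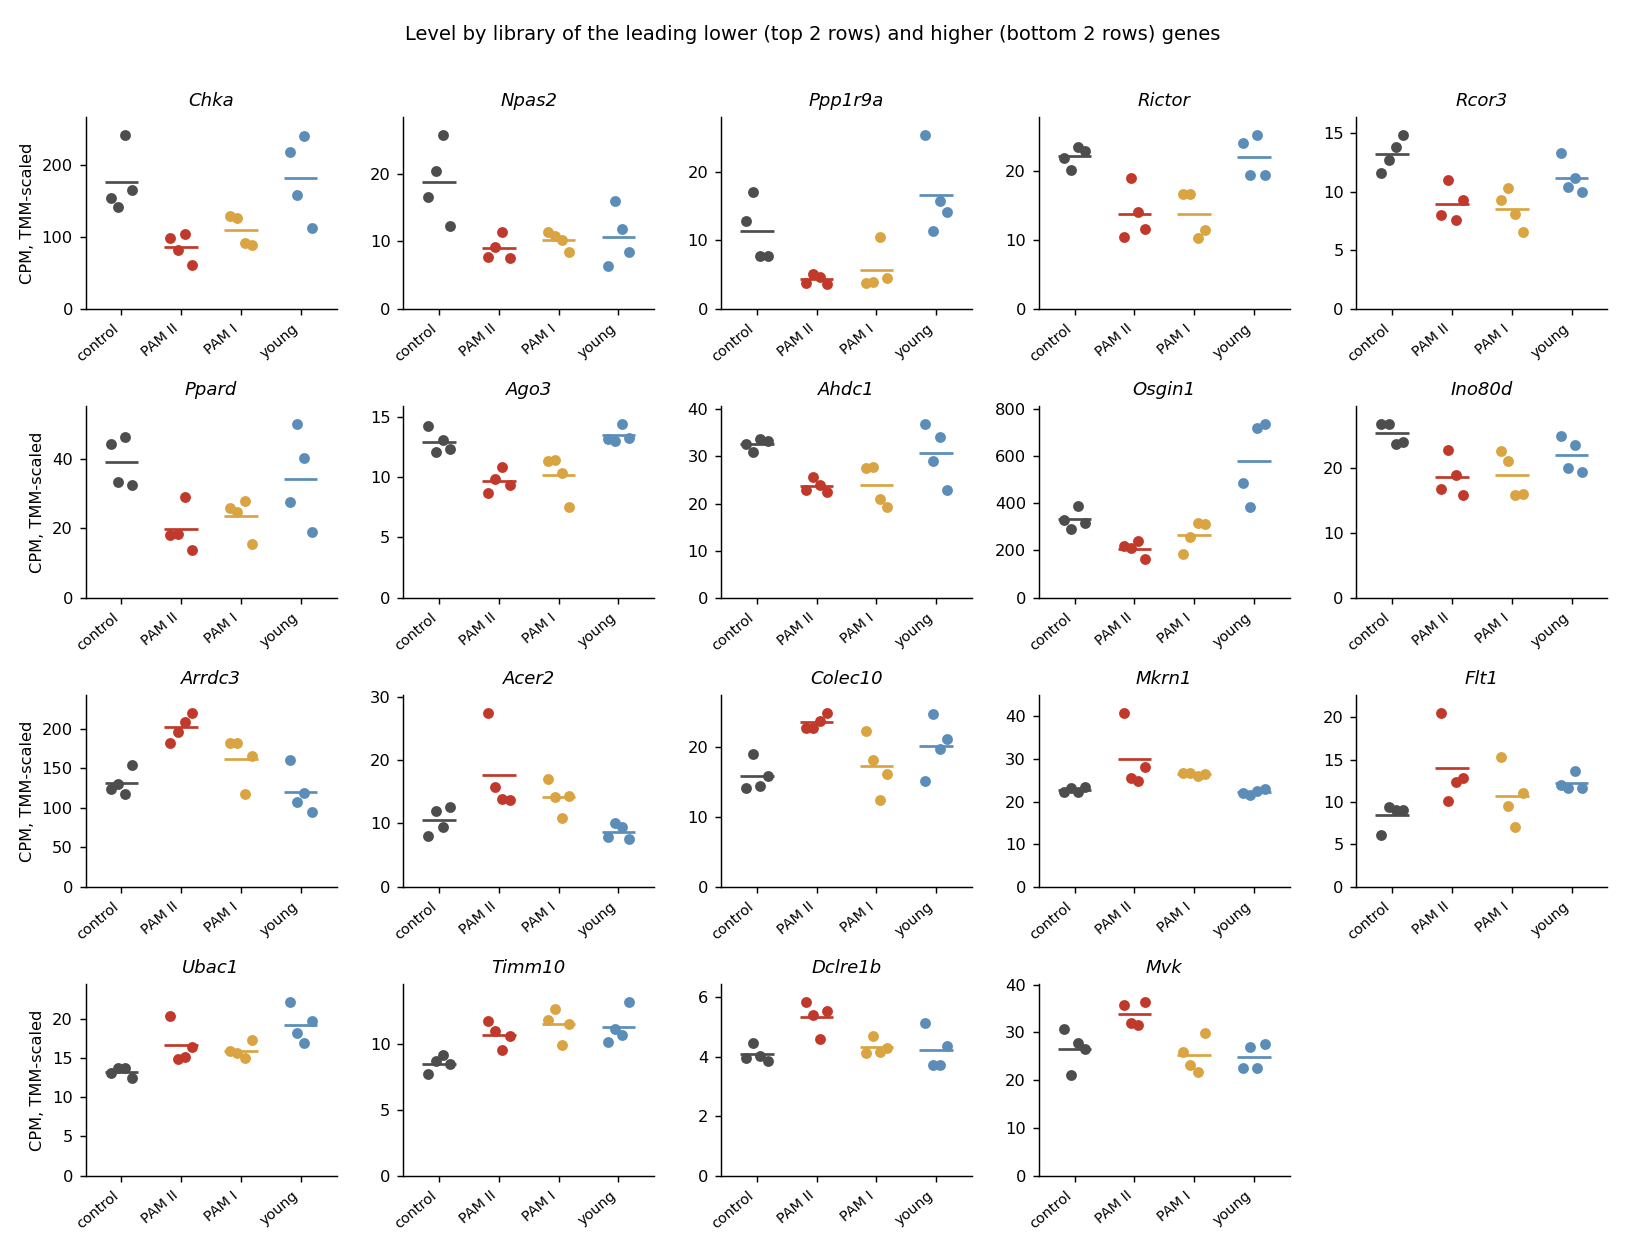
CPM of the leading genes lower (top 2 rows) and higher (bottom 2 rows) in PAM II, 1 point per library, with a bar at the mean of 4. Control and PAM II points do not overlap in any panel by choice of the genes, and PAM I and young livers are shown for reference.

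The second antibiotic group was compared with the same controls, so its fold changes share their control libraries with those of PAM II. Chka measured 129, 127, 91.4 and 88.9 CPM in PAM I, a log2 fold change of -0.69 ± 0.24 against controls. Npas2 measured 11.5, 10.8, 10.2 and 8.39 CPM in PAM I (-0.89 ± 0.26 on the log2 scale) and Rictor 16.6, 16.6, 10.3 and 11.4 CPM (-0.69 ± 0.19 on the log2 scale). Arrdc3 and Colec10 in PAM I had log2 fold changes of 0.31 ± 0.17 and 0.12 ± 0.17. In the direct comparison, PAM II minus PAM I, the log2 difference was -0.34 ± 0.24 for Chka, -0.19 ± 0.26 for Npas2, 0.00034 ± 0.19 for Rictor, 0.32 ± 0.17 for Arrdc3 and 0.45 ± 0.17 for Colec10. PAM II and PAM I differed at an adjusted p under 0.05 in 0 of 17046 genes (0%), with 778 (4.56%) at an unadjusted p under 0.05. DESeq2 and limma voom also called 0, with 1035 and 2916 at an unadjusted p under 0.05. That number was 1687 without PAM II replicate 1, 494 without replicate 3 and 414 without replicate 4.

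Clock genes formed a mixed pattern. The circadian clock is a feedback loop in which BMAL1 (Arntl) with CLOCK or NPAS2 drives the Per and Cry repressors and output factors such as Dbp. Of 22 measured clock genes, 0 were called, 12 had positive and 10 negative fold changes, and the median was 0.10 against 0.0056 over all genes. Arntl measured 29.3, 29.9, 34.6 and 15.3 CPM in controls and 14.2, 16.6, 26.3 and 16.6 CPM in PAM II (-0.57 ± 0.27 on the log2 scale). Cry1 measured 14, 17.2, 21.3 and 7.66 CPM in controls and 5.57, 7.39, 11.7 and 9.19 CPM in PAM II (-0.83 ± 0.32 on the log2 scale), and the receptor Rora, which activates Arntl, had -0.51 ± 0.24. Controls 1 to 3 had the higher levels of these genes, and control replicate 4 lay among the PAM II livers. Dbp, an output factor whose peak is opposite to that of Arntl, measured 1.94, 2.79, 4.67 and 17.1 CPM in controls and 18.3, 22, 3.31 and 30.02 CPM in PAM II (1.47 ± 0.89 on the log2 scale). Dbp was high in control replicate 4 and in PAM II replicates 1, 2 and 4, and low in the other 4 livers. With the difference between Arntl and Dbp as a covariate, the log2 fold change of Chka was -1.01, that of Npas2 -0.67 and that of Ppard -0.68. Both genes of this covariate differed between most controls and most PAM II livers, so it also removes part of the group difference. The covariate cannot tell clock and group apart, and the part of the clock in these genes was not tested. The 15 measured clock output genes had a median of 0.017, with Upp2, a uridine phosphorylase, at 0.76 ± 0.38 and the deubiquitinase Usp2 at 0.62 ± 0.33.

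Genes of choline, methyl group and DNA methylation metabolism were mostly close to the controls, apart from a few with lower levels. Of 27 measured genes, 0 were called, and the median log2 fold change was 0.012. At an unadjusted p under 0.05, 4 were lower (1.5% over all genes) and 0 higher. Beside Chka, they included Tet2, which oxidizes 5-methylcytosine, with 24.5, 23, 19.9 and 28.5 CPM in controls and 10.7, 20.3, 15 and 12.4 CPM in PAM II (-0.72 ± 0.28 on the log2 scale), and the de novo methyltransferase Dnmt3b (-0.55 ± 0.22). Tet2 was lower than the lowest control in PAM II replicates 1, 3 and 4 and within the control range in replicate 2.

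Insulin signalling and glucose output genes had medians near 0. Of 32 measured insulin signalling genes, 0 were called, 15 had positive and 17 negative fold changes, and the median was -0.016. Insr, the insulin receptor, measured 124, 129, 145 and 84.8 CPM in controls and 74.4, 118, 114 and 114 CPM in PAM II (-0.20 ± 0.18 on the log2 scale, 95% interval -0.59 to 0.19). Irs2, the main adaptor of the receptor in fasted liver, had -0.22 ± 0.27 on the log2 scale. The 25 genes of glucose output and glycogen had a median of 0.017. G6pc, glucose 6-phosphatase, had -0.064 ± 0.39 and Pck1, which starts gluconeogenesis from oxaloacetate, 0.45 ± 0.34 on the log2 scale, and their intervals ran from -0.90 to 0.77 and from -0.27 to 1.17. The hormone genes Igf1 and Fgf21 had -0.037 ± 0.17 and 0.21 ± 0.54 on the log2 scale.

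Most cholesterol synthesis genes lay slightly above the controls in PAM II. Sterol synthesis genes share the activator SREBP2, which acts when membrane cholesterol is low. Of 26 measured genes, 25 had positive fold changes and 0 were called, and the median was 0.33. Over all genes 51.4% were positive and the median was 0.0056. At an unadjusted p under 0.05, 4 were higher (1.23% over all genes). The list's mean log2 CPM relative to the control mean was -0.11, -0.10, 0.20 and 0.0078 in controls and 0.091, 0.44, 0.27 and 0.39 in PAM II, so the groups overlapped through PAM II replicate 1 and control replicate 3. Dhcr7, the last enzyme of cholesterol synthesis, measured 119, 136, 136 and 149 CPM in controls and 168, 195, 170.2 and 189.8 CPM in PAM II (0.42 ± 0.18 on the log2 scale). Msmo1, a sterol demethylase, measured 159.8, 144, 186 and 167 CPM in controls and 182, 249.6, 212 and 254 CPM in PAM II (0.45 ± 0.19 on the log2 scale), and the sterol reductase Tm7sf2 had 0.37 ± 0.15. The median stayed between 0.26 and 0.37 when each of the 8 libraries was left out.

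Other lipid genes differed less. The 30 fatty acid synthesis genes had a median of 0.19, with 23 positive, and the 31 genes of lipid droplets and triglyceride storage 0.14, with 28 positive. Control replicate 1 was the lowest of the 8 libraries for both lists, at -0.71 and -0.53 relative to the control mean, and without it the medians were 0.0079 and 0.042. G0s2, an inhibitor of adipose triglyceride lipase, measured 62.8, 93.8, 91.8 and 107 CPM in controls and 129, 106, 127 and 127 CPM in PAM II (0.46 ± 0.19 on the log2 scale). Cidea, a lipid droplet protein, measured 5.04, 80.8, 74.1 and 57.1 CPM in controls and 57.6, 69.2, 53 and 113 CPM in PAM II, and control replicate 1 again stood below the rest. Pparg and Srebf1, transcription factors of lipid storage and synthesis, had log2 fold changes of 0.25 ± 0.19 and -0.32 ± 0.24. The 40 genes of fatty acid oxidation had a median of 0.059, with Angptl4, a lipoprotein lipase inhibitor induced by fasting, at 0.59 ± 0.32. The 29 apolipoprotein and lipid transport genes had a median of 0.080, with the list at 0.064, 0.20, 0.077 and 0.15 in PAM II and -0.082, 0.035, 0.048 and -0.00083 in controls. Bile acid genes had a median of 0.066, and Cyp7a1, which controls the rate of bile acid synthesis, had 0.33 ± 0.43 on the log2 scale.

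Female-biased liver genes, which female mice express more than males do, were higher on median in PAM II, and male-biased genes lower. Their sex bias is set by the pattern of growth hormone release. Of 25 measured female-biased genes, 21 had positive fold changes (51.4% over all genes) and 0 were called. At an unadjusted p under 0.05, 4 were higher (1.23% over all genes), and the median was 0.58. The list lay at -0.18, 0.58, -0.42 and 0.030 in controls and -0.32, 1.19, 0.74 and 1.43 in PAM II relative to the control mean, so PAM II replicate 1 lay within the control range and control replicate 2 just below PAM II replicate 3. Cyp2a4, a testosterone hydroxylase, measured 3.65, 22.6, 12.6 and 12.3 CPM in controls and 15.1, 56, 20.5 and 48.3 CPM in PAM II (1.45 ± 0.62 on the log2 scale). Cyp2b13, a drug-metabolizing cytochrome, measured 3.41, 5.88, 1.16 and 3.76 CPM in controls and 5.79, 24.8, 12.9 and 19.6 CPM in PAM II (2.15 ± 0.92 on the log2 scale), and Cyp2b9 had 0.91 ± 0.54. These cytochromes have near-identical paralogs, so the division of their counts is uncertain. The sulfotransferase Sult3a1 had 2.87 ± 1.14 and Tox, a nuclear factor, 0.56 ± 0.21 on the log2 scale. Of 30 male-biased genes, 24 had negative fold changes, 0 were called, and the median was -0.46, which was -0.057 without control replicate 2. Cyp4a12b, a male-biased fatty acid hydroxylase, measured 5.41, 35.1, 18.9 and 2.85 CPM in controls and 3.45, 4.46, 6.59 and 1.83 CPM in PAM II (-1.93 ± 0.85 on the log2 scale), and control replicates 1 and 4 lay within the PAM II range. Gstp2, a glutathione transferase, had -0.62 ± 0.27 and Hsd3b5, a steroid-metabolizing enzyme, -1.11 ± 1.08. The 38 targets of the drug receptors CAR and PXR had a median of 0.11, with Cyp2b10 at 0.84 ± 0.81.

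Among the 8 libraries, skeletal muscle transcripts were highest in the same 4 as the female-biased genes. Relative to the control mean the 24 measured muscle genes lay at -0.53, 1.57, -0.83 and -0.21 in controls and -0.40, 2.19, 2.89 and 4.06 in PAM II. Outside the 8, PAM I replicates 1 and 2 were high in both lists (muscle 2.91 and 2.88, female-biased 0.97 and 0.55). Young replicate 1 had the highest muscle value of the 16 libraries, 4.18, and the lowest female-biased value, -2.96. All young livers lay at -2.19 or lower for the female-biased genes. Of the 24 muscle genes, 23 had positive fold changes (51.4% over all genes) and 0 were called. At an unadjusted p under 0.05, 13 were higher (1.23% over all genes), and the median was 3.51. Acta1, skeletal actin, measured 0, 2.65, 0 and 0 CPM in controls and 0, 3.98, 7.74 and 19.1 CPM in PAM II, and the fast-fibre genes Actn3 and Pvalb followed the same libraries. The 26 muscle genes summed to 14.4 to 42.7 CPM in controls and 14.3 to 162 CPM in PAM II, and up to 10 of them in a control and up to 8 in a PAM II library had no fragment. As a share of all assigned fragments they took 0.00261% ± 0.00116 in controls and 0.00714% ± 0.00596 in PAM II (SD, n = 4 each, exact permutation test, two-sided, p = 0.171). The smallest p that 4 against 4 libraries allow is 0.0286, and without PAM II replicate 1 the exact permutation test gave 0.0286. With the muscle list's mean as a covariate the median of the female-biased genes was 0.14 and that of the cholesterol synthesis genes 0.30. With that covariate the log2 fold changes of Cyp2b9 and Sult3a1 were -0.36 and -0.58. The muscle list's mean was itself higher in most PAM II livers than in any control, so this covariate also removes part of the group difference. It cannot tell muscle RNA and group apart, and the part of muscle RNA in the female-biased result was not tested.

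**Figure D3:**
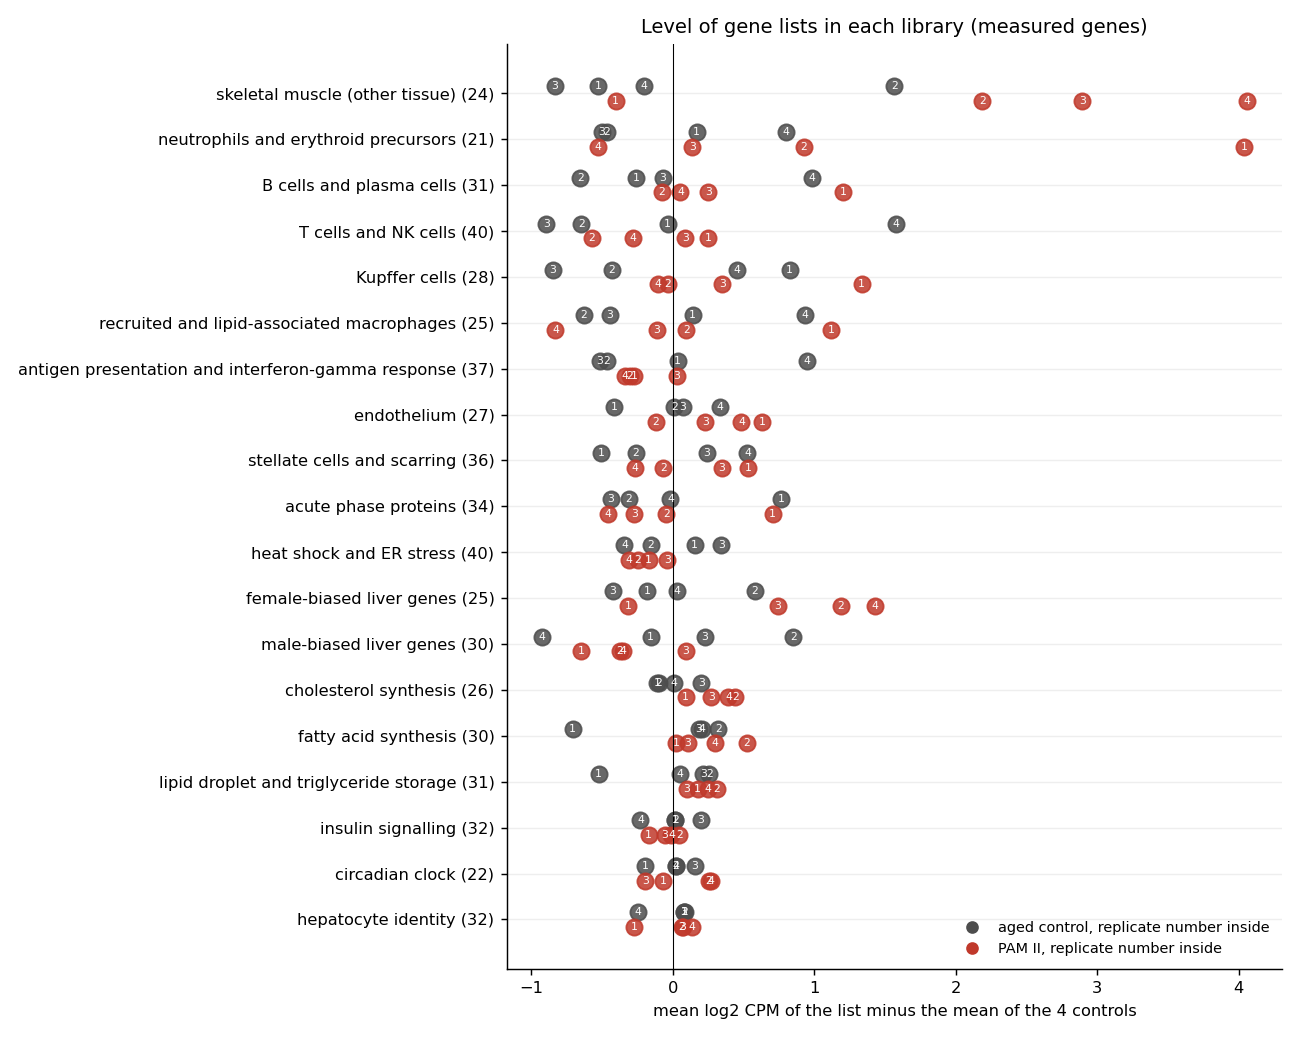
Mean log2 CPM of the measured genes of 19 lists in each of the 8 libraries, relative to the mean of the 4 controls (x axis). Grey circles are controls and red circles PAM II, with the replicate number inside and the number of measured genes in parentheses. PAM II replicate 1 stands apart for granulocyte and erythroid genes, and control replicate 4 for T and natural killer cell genes. PAM II replicates 2 to 4 and, less so, control replicate 2 are high for muscle genes.

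Granulocyte and erythroid genes had the largest median after muscle genes, and their high values came from one liver. Of 21 measured genes, 0 were called, 14 were higher at an unadjusted p under 0.05 against a background of 1.23%, and the median log2 fold change was 2.20. Without PAM II replicate 1 the median was 0.36, with 0 higher and 2 lower at that p. Slc4a1, the anion exchanger of red cells, measured 0.161, 0.343, 0.285 and 0.423 CPM in controls and 42.6, 0.38, 0.609 and 0.235 CPM in PAM II. The beta-globin gene Hbb-bt measured 5.24, 9.46, 8.81 and 14.2 CPM in controls and 137, 12.3, 14.1 and 10.5 CPM in PAM II, and the division of counts with its near-identical paralogs is uncertain. S100a8, a calcium-binding protein of neutrophils, measured 0.847, 0.503, 0.723 and 3.01 CPM in controls and 44.2, 3.54, 1.0005 and 0.492 CPM in PAM II. Genes of granule proteins made by immature granulocytes followed the same library, with Mpo, myeloperoxidase, at 23.4, 1.34, 0.283 and 0.0235 CPM in PAM II, Elane, neutrophil elastase, at 9.88, 0.557, 0.261 and 0.422 CPM and Ngp at 38.8, 2.2, 0.13 and 0.0469 CPM. PAM II replicate 2 held the second highest level of S100a8, S100a9, Ngp, Ltf and Mpo, and PAM II replicate 4 lay within or below the control range for these genes. The list summed to 262 to 390.5 CPM in controls and 253 to 1946 CPM in PAM II. Of the 41 genes at least 4-fold above the other 7 libraries in PAM II replicate 1, 13 were on this list, and the membrane skeleton genes of red cells Sptb and Ank1 were also among them. Mpo, Elane, Hbb-bt, Sptb and Ank1 were named after their values were seen.

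Other genes were also high in that liver. Cdkn2a, which encodes the cell cycle inhibitor p16 and marks senescent cells, measured 0.141, 0.457, 0.263 and 0.379 CPM in controls and 3.45, 0.304, 0.522 and 0.328 CPM in PAM II. Without PAM II replicate 1 the log2 fold change of Cdkn2a was 0.32, against 1.91 with it. The 31 senescence and DNA damage genes had a median of -0.017, and Cdkn1a, the p21 inhibitor, had -0.16 ± 0.41 on the log2 scale. Cell division genes lay at 0.78, 0.039, -0.034 and -0.33 in PAM II and -0.15, 0.066, -0.035 and 0.12 in controls, and the one high value was again replicate 1.

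**Figure D4:**
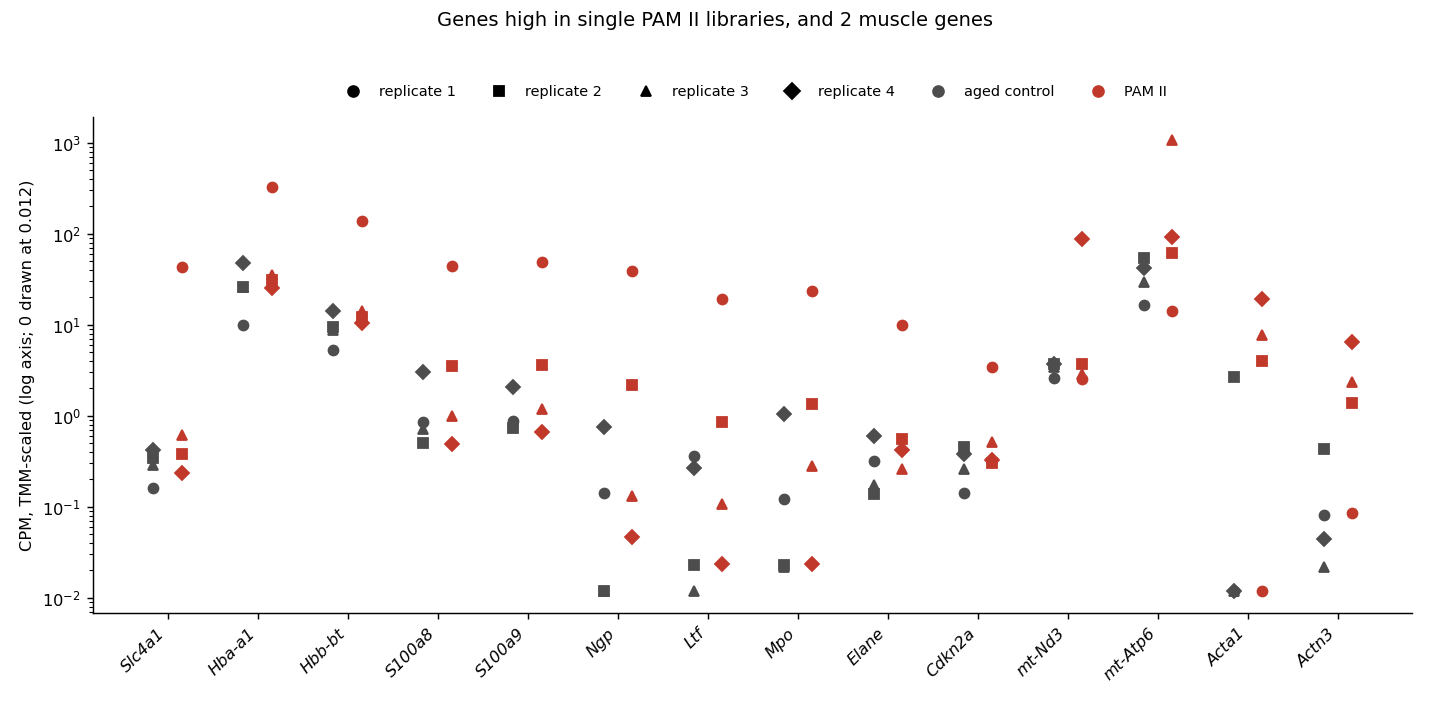
CPM (log axis) of red cell genes, granulocyte genes, Cdkn2a, mitochondrial genes and muscle genes in each of the 8 libraries, with controls in grey, PAM II in red and a marker shape per replicate. PAM II replicate 1 (red circle) is the highest library for the genes from Slc4a1 to Cdkn2a, PAM II replicate 4 (red diamond) for mt-Nd3, Acta1 and Actn3, and PAM II replicate 3 (red triangle) for mt-Atp6.

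Macrophage and lymphocyte genes mostly overlapped between the groups. The groups did not overlap in 1 of 28 Kupffer cell genes (PAM II lower) and 1 of 25 recruited macrophage genes (PAM II higher). Among 31 B cell and plasma cell genes and 40 T cell and natural killer cell genes, 0 were without overlap. Over all genes that share was 2.1%. Kupffer cells are the resident macrophages of the liver, and Clec4f is a lectin they carry in mouse. Clec4f measured 181, 46.2, 32.8 and 121 CPM in controls and 283, 96.2, 77.6 and 76.4 CPM in PAM II (0.48 ± 0.59 on the log2 scale). Cd5l, a protein secreted by resident macrophages, measured 102, 48.1, 42.5 and 92.8 CPM in controls and 368, 96, 115 and 80.7 CPM in PAM II (1.21 ± 0.45 on the log2 scale, and 0.44 without PAM II replicate 1). Of 28 measured Kupffer cell genes, 0 were called and 22 had positive fold changes, with a median of 0.37, which was -0.20 without PAM II replicate 1. The 25 genes of recruited and lipid-associated macrophages had a median of 0.10, with Gpnmb, a marker of lipid-laden macrophages, at 0.070 ± 0.47. That median was -0.39 without PAM II replicate 1, with 4 of 25 positive, and 0.52 without control replicate 4. Of 40 T cell and natural killer cell genes, 35 had negative fold changes, 0 were called, and the median was -0.52. That list lay at -0.036, -0.65, -0.89 and 1.58 in controls and 0.25, -0.57, 0.088 and -0.28 in PAM II, and its median was 0.46 without control replicate 4 and 0.25 with limma voom and quality weights. The list summed to 97.4 to 179.9 CPM in controls and 90.6 to 117 CPM in PAM II. Cd4, the coreceptor of helper T cells that macrophages also carry, measured 13, 0.457, 0.416 and 9.91 CPM in controls and 0.361, 0.304, 1.33 and 1.03 CPM in PAM II. Cd4 was high in control replicates 1 and 4, and the other 6 livers lay far below. The 31 B cell and plasma cell genes had a median of 0.25, which ran from -0.077 to 1.002 when each library was left out, the highest without control replicate 4 and the lowest without PAM II replicate 1, and Ighm, the IgM heavy chain, measured 58.2, 75.1, 88.2 and 112 CPM in controls and 212, 149, 104 and 120.0 CPM in PAM II (0.81 ± 0.40 on the log2 scale). Igha, the IgA heavy chain, measured 6.72, 2.4, 7.69 and 11.8 CPM in controls and 45.7, 1.77, 9.92 and 3.54 CPM in PAM II.

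Genes of antigen presentation and the interferon-gamma response were lower on median in PAM II, at -0.28, with 32 of 37 negative and 0 called. The list lay at 0.033, -0.47, -0.51 and 0.95 in controls and -0.27, -0.30, 0.027 and -0.34 in PAM II, so the PAM II livers lay between the low and the high controls, and the median was 0.11 without control replicate 4 and 0.089 with limma voom and quality weights. Microbial sensing genes had a median of -0.024 over 35 genes, with Tlr4, the lipopolysaccharide receptor, at 0.069 ± 0.34 and a 95% interval of -0.65 to 0.79. The medians were -0.061 for 39 inflammation and cytokine genes, with Il1b at 0.079 ± 0.40, and 0.070 for 36 interferon-stimulated genes. For inflammation genes the median was -0.32 without PAM II replicate 1 and 0.18 without control replicate 4. For interferon-stimulated genes leaving out control replicate 4 gave 0.29, and leaving out control replicate 3 gave -0.067. With PAM II replicate 1 and control replicate 4 both left out, an alternative chosen after seeing the data, the interferon-stimulated median was 0.30. There 33 of 36 genes were positive, 7 were higher at an unadjusted p under 0.05 and 0 were called. With all libraries 24 were positive and 0 were higher or lower at that p. Other lists also moved under this alternative, with 10 of 40 heat shock and endoplasmic reticulum stress genes lower and 0 higher at that p.

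The acute phase and stress genes given here with values per liver had their highest levels in 1 or 2 controls. Saa1, serum amyloid A1, measured 533, 60.01, 52.8 and 129 CPM in controls and 201, 48.9, 52.8 and 50.9 CPM in PAM II (-1.13 ± 0.66 on the log2 scale), and replicate 1 was the highest of each group. Its counts may be divided with the paralog Saa2. Orm2, an acid glycoprotein, had -1.52 ± 0.67 and Lcn2, an iron-sequestering protein of inflamed liver, -0.54 ± 0.75 on the log2 scale, and without control replicate 1 they were 0.032 and 0.65. Hamp, which encodes the iron hormone hepcidin, measured 502, 175, 257 and 439 CPM in controls and 67.7, 138, 267 and 103 CPM in PAM II (-1.25 ± 0.44 on the log2 scale, 95% interval -2.18 to -0.32). PAM II replicates 1, 2 and 4 lay below all controls for Hamp, and PAM II replicate 3 lay within the control range. The 34 acute phase genes had a median of -0.070, and 0 were called. At an unadjusted p under 0.05, 2 were higher and 2 lower, and the fold changes ran from -1.52 to 3.57. The list lay at 0.76, -0.31, -0.44 and -0.017 in controls and 0.71, -0.046, -0.27 and -0.46 in PAM II. Its members S100a8, S100a9 and the metallothionein Mt2 were at least 4-fold above the other 7 libraries in PAM II replicate 1. Of 40 heat shock and endoplasmic reticulum stress genes, 31 had negative fold changes, 0 were called, and the median was -0.13. Creld2, a folding factor of the endoplasmic reticulum, measured 191, 49.8, 115 and 38.9 CPM in controls and 41.8, 37.4, 67.5 and 31.4 CPM in PAM II (-1.15 ± 0.49 on the log2 scale), and Hspa5, the chaperone BiP, had -0.61 ± 0.31. Control replicates 1 and 3 held the high levels of Creld2 and Hspa5, and Derl3, another gene of this response, measured 39.2, 1.39, 9.45 and 1.31 CPM in controls and 1.63, 1.8, 5.24 and 0.774 CPM in PAM II. Its log2 fold change was -2.44 ± 1.03, and -0.78 without control replicate 1.

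Endothelial genes were mostly slightly higher in PAM II. Of 27 measured genes, 25 had positive fold changes (51.4% over all genes) and 0 were called. At an unadjusted p under 0.05, 4 were higher (1.23% over all genes), and the median was 0.29. The list lay at -0.41, 0.011, 0.071 and 0.33 in controls and 0.63, -0.12, 0.23 and 0.49 in PAM II, with overlap between the groups. Stab2, a scavenger receptor of sinusoidal endothelium, measured 28.7, 44.4, 41.1 and 36.2 CPM in controls and 73.2, 49.9, 41.5 and 58.4 CPM in PAM II (0.57 ± 0.19 on the log2 scale). Vwf, von Willebrand factor of larger vessels, measured 4.42, 10.5, 9.99 and 6.68 CPM in controls and 16.8, 13.5, 9.44 and 11.9 CPM in PAM II (0.71 ± 0.23 on the log2 scale), and Cdh5, the endothelial cadherin, had 0.67 ± 0.24. PAM II replicate 1 was the highest library for Stab2, Vwf, Cdh5 and Flt1, and without it the median of the list was 0.21. Leaving out control replicate 1 gave 0.16, and leaving out control replicate 4 gave 0.52. The 36 stellate cell and scarring genes had a median of 0.069, with Rgs5, a pericyte gene, at 0.90 ± 0.32 and Postn, the matrix protein periostin, at 0.76 ± 0.32. Egr1, an immediate early transcription factor, measured 18.8, 18.6, 34.7 and 34 CPM in controls and 122, 72.4, 27.7 and 50.02 CPM in PAM II (1.36 ± 0.42 on the log2 scale), while the 30 immediate early genes had a median of 0.082. PAM II replicate 1 was the highest library for Egr1, and replicate 3 lay within the control range.

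Respiratory chain, ribosomal and proteasome genes had medians near 0, while mitochondrially encoded mRNAs varied with single libraries. Mitochondrially encoded mRNAs took 6.9% ± 1.89 of fragments in controls and 6.16% ± 1.63 in PAM II (SD, n = 4 each, exact permutation test, two-sided, p = 0.543). The difference ran from -1.52 percentage points without control replicate 1 to -0.0083 without PAM II replicate 1. Within them, mt-Nd3, a complex I subunit, measured 2.6, 3.68, 3.44 and 3.7 CPM in controls and 2.53, 3.72, 2.89 and 88.6 CPM in PAM II. The complex V gene mt-Atp6 measured 16.5, 54.5, 29.5 and 42.1 CPM in controls and 14.2, 61.8, 1080.5 and 92.1 CPM in PAM II. Each was high in a different single PAM II liver while the 13 mitochondrial mRNAs had a median log2 fold change of -0.071 (-0.56 with the muscle covariate, -0.40 with the clock covariate, and -0.27 to 0.085 when each library was left out), and without PAM II replicate 4 that of mt-Nd3 was -0.15. The 13 summed to 42755 to 81507 CPM in controls and 35622 to 81425 CPM in PAM II, so mt-Nd3 and mt-Atp6 took a small part. Whether their high values reflect expression or the assignment of reads was not tested. Of 68 nuclear-encoded respiratory chain genes, 65 had positive fold changes, 0 were called, and the median was 0.071, the individual values running from -0.094 to 0.20. With the clock covariate that median was -0.028, and it ran from 0.026 to 0.10 when each library was left out, the lowest without PAM II replicate 2. The 79 cytosolic ribosomal protein genes had a median of -0.0029 and the 31 proteasome genes 0.046. Of 33 autophagy and lysosome genes, 29 had positive fold changes (51.4% over all genes), with a median of 0.10. At an unadjusted p under 0.05, 3 were higher (1.23% over all genes). They included the protease Ctsd (0.28 ± 0.13) and the mitophagy receptor Bnip3 (0.24 ± 0.11).

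Across the 50 gene lists, which held 3 to 79 measured genes, no member passed the test. The median log2 fold change lay within 0.1 of 0 in 29 lists, within 0.2 in 36, and beyond 0.5 in 4: muscle, granulocyte and erythroid, female-biased, and T and natural killer cell genes. Hepatocyte identity genes had a median of 0.032, complement and coagulation genes -0.021 and urea cycle and amino acid genes 0.032. Leaving out 1 of the 8 libraries changed the sign of the median in 32 of the 50 lists. Markers of pancreas, kidney and gut mostly fell under the filter on low counts, with 3 of 17 pancreas genes and 3 of 16 kidney, gut and gallbladder genes passing it. Among the 29 genes chosen by name that the plot of intervals shows, all 95% intervals but those of Cyp2a4, Hamp, Arntl and Cdkn2a held 0, and these intervals are not adjusted for the number of genes. The narrowest were those of Igf1 (-0.39 to 0.32), Insr (-0.59 to 0.19) and Pparg (-0.14 to 0.65), within 2-fold of no change.

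**Figure D5:**
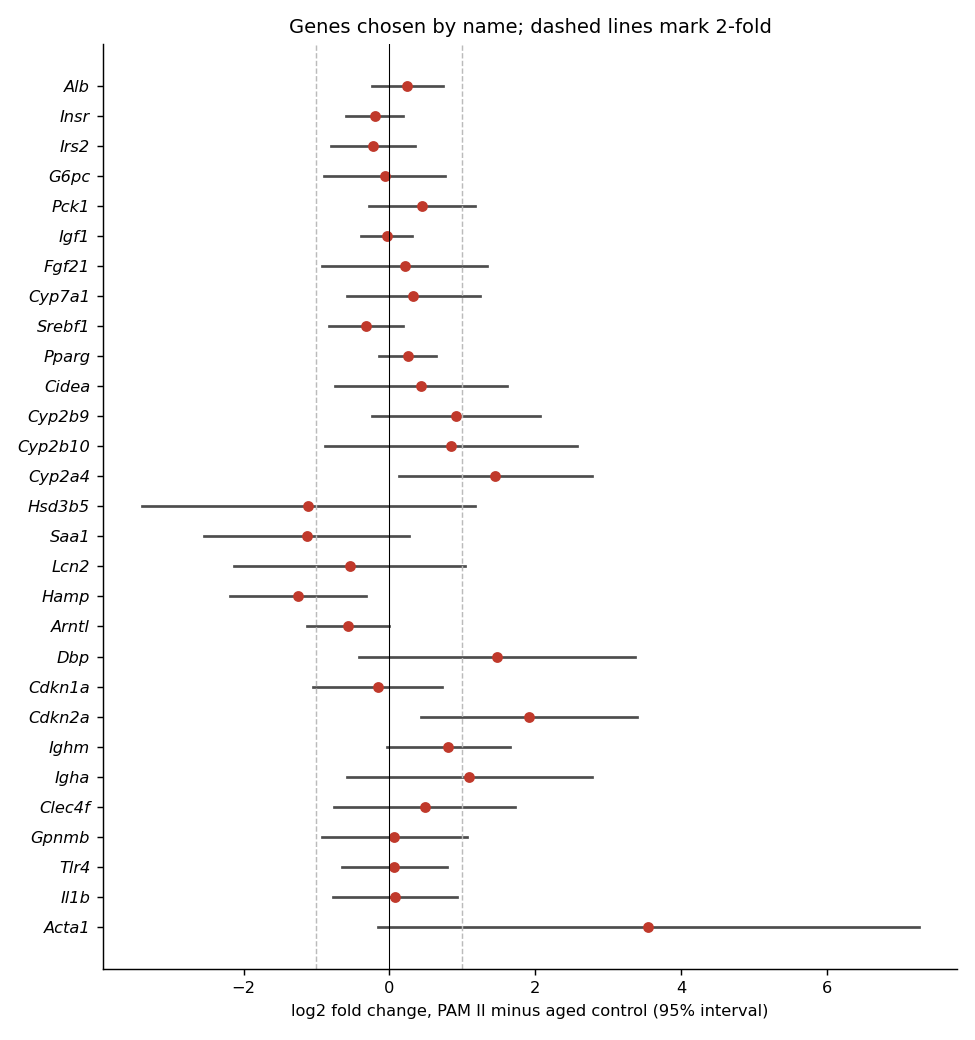
Log2 fold change of PAM II against aged control livers with its 95% interval for 29 genes chosen by name, 1 line per gene, with dashed lines at 2-fold. Most intervals hold 0, and those of low or variable genes such as Hsd3b5 and Acta1 extend past 2-fold on at least one side.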

How the data were processed

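Liver RNA was sequenced as paired reads of 100 bases. Per the submitters' processing notes, the tools were Trimmomatic 0.38, HISAT2 2.1.0 and featureCounts 1.5.0-p2. The authors deposited 1 file of raw gene counts per library, and per the file headers featureCounts counted pairs over exons on 1 strand (-s 1) with the Ensembl 99 annotation. Of 55471 gene IDs, 55144 matched a symbol.

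All 16 libraries were fitted together by group with edgeR 4.0.16 in R 4.3.3 (TMM scaling, filterByExpr, robust quasi-likelihood test), which kept 17046 genes, and PAM II was contrasted with aged controls with Benjamini-Hochberg adjustment at 0.05. The young libraries carry a description that speaks of aged mice, and they were grouped by their age label. DESeq2 1.42.0, limma 3.58.1 (voom), other scalings, filters, library sets and covariates were alternatives. The fit was tested on simulated data. No pair of libraries agreed closely enough to be 1 library deposited more than once (highest r across genes 0.988).

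The rule for named genes took called genes first, then the 10 smallest p per direction among genes of mean log2 CPM 1 or more, no overlap and no predicted, pseudogene or receptor segment names, then up to 4 members per gene list by p, and genes chosen by name. Some genes the rule names are not reported here. The groups, gene lists and tests were chosen with earlier results of these data known. Gene lists are described by counts and medians.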

Additional observations from a re-analysis of the deposited data

Results flagged for a closer look

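A sample far from the other 3 of its group was looked for in 196 sets of 4 values and found in 32 (16.3%). Chance flags about 1 in 20 sets, but many of these genes were named for their values and share a cell type, so the share cannot be read against that figure. PAM II replicate 1 accounted for 18. In that liver the high values were Slc4a1 at 42.6 CPM, Hba-a1 at 327 CPM and Hbb-bt at 137 CPM among red cell genes. Among granulocyte genes they were S100a8 at 44.2 CPM, S100a9 at 48.6 CPM, Ngp at 38.8 CPM, Ltf at 18.96 CPM, Elane at 9.88 CPM and Mpo at 23.4 CPM. Among other genes they were Clec4f at 283 CPM, Cd5l at 368 CPM, Tlr4 at 1.63 CPM, Cdkn2a at 3.45 CPM, Acer2 at 27.5 CPM, Fabp4, a fatty acid binding protein of fat and endothelium, at 55.5 CPM, Saa1 at 201 CPM and Lcn2 at 133 CPM. Insr was low in the same liver, at 74.4 CPM.

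In the other PAM II livers, G0s2 was low in replicate 2 at 106 CPM, mt-Atp6 was high in replicate 3 at 1080.5 CPM and mt-Nd3 was high in replicate 4 at 88.6 CPM. Among controls, replicate 1 was high for Saa1 at 533 CPM, Orm2 at 217 CPM and Lcn2 at 200.02 CPM and low for Flt1 at 6.11 CPM. Control replicate 2 was high for Acta1 at 2.65 CPM, Actn3 at 0.434 CPM and Pvalb at 0.274 CPM, control replicate 3 was low for Usp2 at 1.25 CPM, and control replicate 4 was high for S100a8 at 3.01 CPM, S100a9 at 2.09 CPM and Mpo at 1.05 CPM.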

How the results depend on the processing

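No gene was called under any of the 20 alternatives for PAM II against controls or the 19 for PAM II against PAM I. Genes at an unadjusted p under 0.05 numbered 883 without a filter, 902 with limma voom and 1063 with the muscle covariate, and 329 to 933 when 1 library was left out (highest without control replicate 4). Between PAM II and PAM I they numbered 2916 with limma voom, 1425 with the clock covariate, 2323 with PAM II replicate 1 and control replicate 4 both left out (an alternative chosen after seeing the data), and 414 to 1687 when 1 library was left out (lowest without PAM II replicate 4, highest without PAM II replicate 1). The difference in muscle share ran from 0.00178 to 0.00639 percentage points, the latter without PAM II replicate 1 (exact permutation test, p = 0.0286, the smallest possible). Of 96 genes examined, 20 changed sign under at least 1 alternative, and none was called. Medians of gene lists were -0.011 for apolipoproteins and -0.12 for muscle genes with the muscle covariate, which is the mean of those muscle genes. For pancreas genes they were -0.48 and -0.48 with only the 8 and only the 12 aged libraries. For heme and iron genes they were 0.036 and -0.030 with the clock covariate and with both libraries left out. Leaving out 1 library, the medians ran from -0.077 to 1.002 for B cell genes and from -0.011 to 0.056 for heme and iron genes.

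The following log2 fold changes reversed, and the cause was not tested. With the clock covariate they were Dbp -0.074 (itself part of that covariate), Cidea -0.11, Irs2 0.12, Igf1 0.024, Lcn2 0.060 and Gpnmb -0.14. With the muscle covariate they were Cyp7a1 -0.15, Cyp2b9 -0.36, Sult3a1 -0.58, Lcn2 0.081, Cdkn1a 0.059 and Acta1 -0.46 (itself part of that covariate). With limma voom they were Igf1 0.030, Gpnmb -0.25 and Il1b -0.12. With both libraries left out they were Igf1 0.027, Igha -0.16, Clec4f -0.070, Gpnmb -0.29 and Il1b -0.38. Leaving out 1 library, they ran in G6pc from -0.27 to 0.12, Fgf21 from -0.072 to 0.50, Igf1 from -0.11 to 0.078, Cyp7a1 from -0.029 to 0.57, Saa1 from -1.93 to 0.13, Orm2 from -2.03 to 0.032, Lcn2 from -1.68 to 0.65, Igha from -0.49 to 1.46, Clec4f from -0.19 to 0.99, Gpnmb from -0.31 to 0.34, Tlr4 from -0.11 to 0.35, Il1b from -0.47 to 0.34, Cdkn1a from -0.70 to 0.073 and mt-Nd3 from -0.15 to 3.25. No paired analysis was possible because the labels give the groups no shared replicate numbers (replicates were numbered in accession order). Low counts limit the precision: under a mean log2 CPM of 1, 31.5% of genes had an interval within 2-fold.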
